A study of Mus musculus with 6 samples.

Results

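The genes described here encode EphB receptors and the ephrin-B ligands they bind, measured in the hindlimb bud of mouse embryos with and without the LIM homeodomain factor LMX1B. A probe set, the group of probes that reads 1 transcript on the array, was taken when the platform annotation gave it exactly 1 symbol and that symbol was Ephb1, Ephb3, Ephb4, Ephb6, Efnb1, Efnb2 or Efnb3. This gave 12 of 45037 tested probe sets: 1 for each of the 4 receptor genes, 3 for Efnb1, 4 for Efnb2 and 1 for Efnb3. Ephb2, another EphB receptor gene, was not among those listed, so statements about receptors here cover only the 4 listed. Each of 3 wild-type and 3 Lmx1b -/- pools combined both hindlimbs of 3 embryos of strain 129Sv at stage E11.5, so that 6 limbs went into each array. About 500 µm of tissue was taken from the proximal end of each bud. The labels name no Cre, other allele or treatment, and they do not say whether the groups were littermates. The study asked which genes LMX1B controls in this tissue.

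EphB proteins are receptor tyrosine kinases, and ephrin-B proteins are ligands that stay anchored in the membrane of the neighbouring cell. Binding signals in both directions: forward into the cell with the receptor, and in reverse into the cell with the ligand, through the ligand's cytoplasmic tail and its PDZ-binding end. Contact often makes cells or growth cones separate, and the family is known for setting tissue boundaries, for the choice between arteries and veins, and for guiding motor axons to the dorsal or ventral side of the limb, a side that LMX1B specifies in dorsal limb mesenchyme.

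Efnb2 was the member with the largest difference between the groups, and the windows before the starts of Efnb2, of Efnb1, the ligand gene that was not lower, and of Ephb4, a receptor for ephrin-B2, are shown for comparison. Each is the 250 bases before the gene's start in RefSeq, build GRCm38.p6, written 5′ to 3′ on the gene's strand, and 6 of the 7 genes matched an entry of that table. Capitals mark matches on either strand to the motif of the GC box (GGGCGG), of the TATA box (TATAAA) and of the CCAAT box, or to the core TAATTA, which many LIM homeodomain proteins bind; no matches overlapped one another in these windows.
Efnb2 (chr8:8661243-8661492, reverse strand): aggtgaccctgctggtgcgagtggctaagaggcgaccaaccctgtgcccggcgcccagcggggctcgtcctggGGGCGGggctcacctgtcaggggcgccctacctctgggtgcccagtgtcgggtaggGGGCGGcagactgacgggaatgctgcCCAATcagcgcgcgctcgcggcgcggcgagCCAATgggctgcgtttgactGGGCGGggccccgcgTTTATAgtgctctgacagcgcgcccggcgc
Efnb1 (chrX:99135811-99136060, forward strand): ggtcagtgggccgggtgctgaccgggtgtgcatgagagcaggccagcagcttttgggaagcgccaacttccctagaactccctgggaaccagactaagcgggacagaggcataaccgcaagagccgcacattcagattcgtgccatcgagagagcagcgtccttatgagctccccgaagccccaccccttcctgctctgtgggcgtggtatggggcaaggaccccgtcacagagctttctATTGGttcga
Ephb4 (chr5:137349859-137350108, forward strand): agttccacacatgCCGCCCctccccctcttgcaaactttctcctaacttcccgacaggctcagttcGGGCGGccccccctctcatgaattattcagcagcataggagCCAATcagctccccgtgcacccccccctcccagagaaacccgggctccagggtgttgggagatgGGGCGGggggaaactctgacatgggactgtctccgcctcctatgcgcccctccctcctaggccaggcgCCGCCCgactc
The Efnb2 window held 3 GC boxes and 2 CCAAT boxes. Its 1 match to TATAAA lay on the opposite strand, so that it reads TTTATA along the gene, from 30 bases before the start. The Efnb1 window held 1 CCAAT box and none of the other motifs, and the Ephb4 window held 4 GC boxes and 1 CCAAT box. Of 32851 windows of the same length in the table, 32.7% held GGGCGG, 12.4% held TATAAA, 33.8% held CCAAT and 4.84% held TAATTA. None of the 6 member windows held that last core, which says only that those letters are not there. The Efnb2 window was 72.0% G or C with 27 CG pairs, against medians of 52.4% and 6 over all windows.

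Values below are deposited log2 RMA values, given in the order of pools 1, 2 and 3 of a group, and a change is the null mean less the wild-type mean, in log2 units, with the standard error (SE) of limma's fit over all probe sets. A probe set passed when its p, after Benjamini-Hochberg adjustment across all 45037, was under 0.05. Brightness depends on the probes as well as on the transcript, so levels are compared between groups within a probe set and the members are not ordered by level. Correlations between arrays over all probe sets ran from 0.993 to 0.997. The brighter Lmx1b probe set had a change of -3.45 (SE 0.16; limma adjusted p = 0.000544), in the direction the genotype labels give for all 6 pools, while the other one lay at 3.93 and 3.92 and reads a part of the gene not known here. Limb mesenchyme markers were brighter than the median of all probe sets, among them Prrx1 at 11.2, 11.2 and 11.2 in wild-type pools, except Tbx5, at 4.27. The spinal cord genes Sox2, Olig2, Foxa2 and Pax6 averaged 2.94 to 3.08 over all pools, near the bottom of the range. RMA returns no value of 0. None of the 7 genes lies on chromosome 2, which carries Lmx1b.

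No receptor and no ligand probe set passed the threshold in limma's fit, against 0.0844% of all tested probe sets. The ligand probe sets spanned a wider range of changes than the receptor probe sets: all 4 Efnb2 probe sets were lower in null pools, by up to 0.42, all 3 Efnb1 probe sets were higher, by up to 0.19, and Efnb3 and the 4 receptors lay between -0.15 and 0.05. At an unadjusted p under 0.05, 3 ligand probe sets were lower, all of Efnb2, and 1 was higher, of Efnb1. Among all probe sets 4.2% were lower and 5.22% were higher by that rule. The median change was -0.03 over the 8 ligand probe sets and -0.0042 over the 4 receptor probe sets, beside 0.01 over all probe sets.

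**Figure D1:**
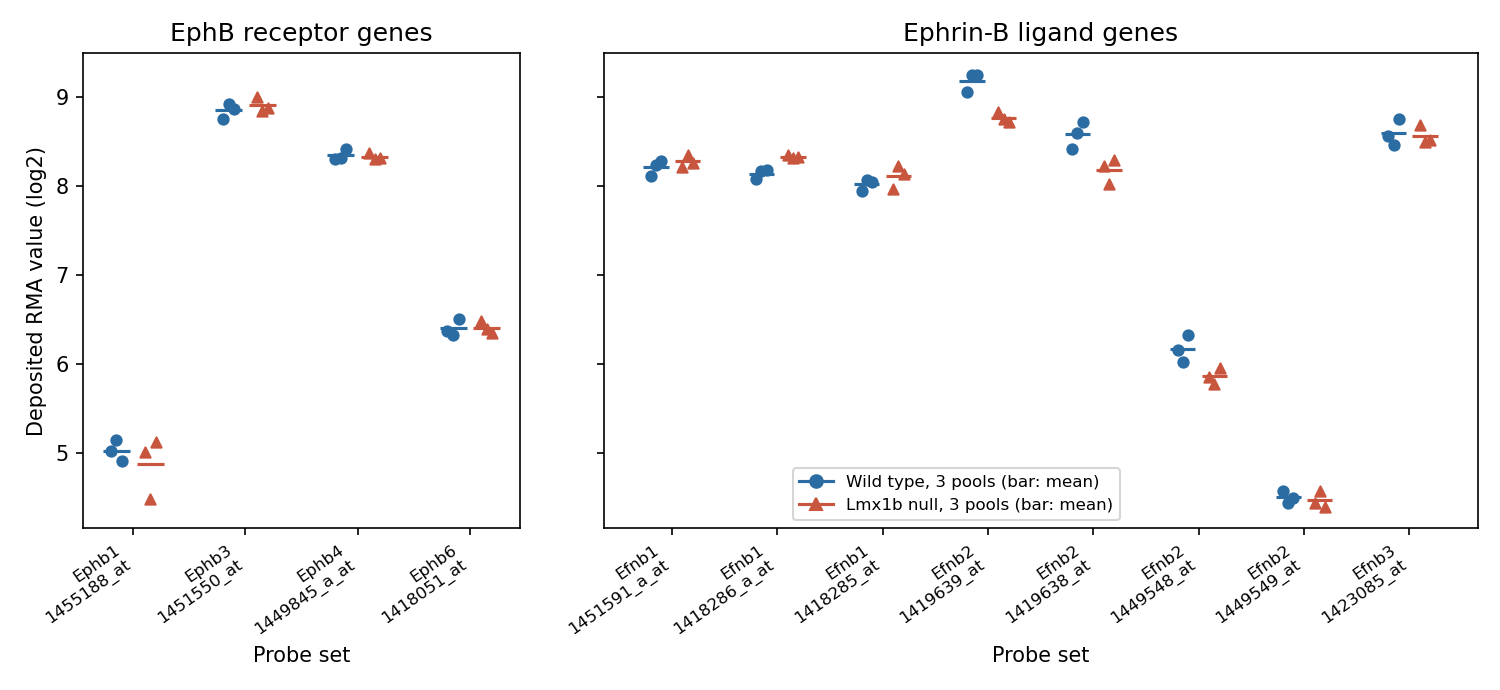
Deposited log2 RMA values (vertical axis) of the 12 probe sets, receptors on the left and ligands on the right; each point is 1 pool, circles wild type, triangles Lmx1b null, and bars are means of 3 pools. The groups separate in the 3 brighter Efnb2 probe sets, with null pools lower, and in Efnb1 1418286_a_at, with null pools higher; in the other 8 they overlap.

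Among the ligands, Efnb2 encodes ephrin-B2, which marks arterial endothelium and is also made by limb mesenchyme. Its brightest probe set, 1419639_at, read 9.06, 9.25 and 9.25 in wild-type pools and 8.83, 8.75 and 8.73 in null pools. The highest null pool lay below the lowest wild-type pool, which was pool 1. Group means of 9.19 ± 0.11 and 8.77 ± 0.06 (SD, n = 3) put the change at -0.42 (SE 0.08; 95% interval -0.60 to -0.24), or 1.33-fold lower. Its unadjusted p of 0.000664 was undercut by 0.424% of all probe sets, but the limma adjusted p was 0.156, so the difference did not pass. With 1 probe set per gene over 18193 genes the adjusted p was 0.131.

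Other probe sets of the same gene gave differences of like size, although they read the same transcripts in the same RNA and are not independent evidence. Probe set 1419638_at read 8.42, 8.60 and 8.72 in wild-type and 8.22, 8.02 and 8.29 in null pools, without overlap. Its change was -0.40 (SE 0.10; limma adjusted p = 0.300). Probe set 1449548_at read 6.16, 6.02 and 6.33 against 5.85, 5.78 and 5.96, again without overlap, a change of -0.31 (SE 0.09; adjusted p = 0.397). So 3 of 4 Efnb2 probe sets had null pools wholly below wild-type pools, as did 5.78% of all probe sets. The pools did not keep 1 order: wild-type pool 1 was lowest in the 2 brighter probe sets and wild-type pool 2 in the third.

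The dimmest Efnb2 probe set, 1449549_at, did not follow. It read 4.57, 4.44 and 4.50 in wild-type and 4.44, 4.57 and 4.40 in null pools, with overlap and a change of -0.04 (95% interval -0.21 to 0.14; limma adjusted p = 0.915). That interval does not reach the -0.42 of the brightest probe set. Its mean lay below the median of all probe sets, 4.98, and which part of the transcript each probe set reads was not known here. Why it differed from the others was not tested.

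Efnb1 encodes ephrin-B1, an X-linked ligand that sets boundaries between cells in the skeleton and face. Probe set 1418286_a_at read 8.08, 8.17 and 8.18 in wild-type pools and 8.35, 8.32 and 8.33 in null pools. All null pools were above all wild-type pools, as in 8.62% of all probe sets, and the null pools lay close together (SD 0.01 against 0.05). The change was 0.19, or 1.14-fold higher (SE 0.06; 95% interval 0.05 to 0.34; limma adjusted p = 0.427), and did not pass. The other 2 Efnb1 probe sets overlapped between groups. Probe set 1451591_a_at read 8.12, 8.24 and 8.28 against 8.22, 8.35 and 8.26, a change of 0.06 (SE 0.07; adjusted p = 0.825), and 1418285_at read 7.95, 8.07 and 8.05 against 7.97, 8.22 and 8.14, a change of 0.09 (SE 0.08; adjusted p = 0.772). Their intervals, -0.11 to 0.23 and -0.10 to 0.28, include both no change and the 0.19 of the first. The pools differed in Xist, the X-inactivation transcript of cells with 2 X chromosomes: 1436936_s_at read 4.68, 9.88 and 4.72 in wild-type and 9.66, 9.16 and 10.8 in null pools. Fitted together with that level, the Efnb1 changes were 0.05, 0.17 and 0.05 in the order 1451591_a_at, 1418286_a_at and 1418285_at. That of Efnb2 1419639_at was -0.47 (SE 0.11, limma adjusted p = 0.589). The Y-linked gene Eif2s3y read 7.12, 6.00 and 6.90 in wild-type and 5.86, 6.37 and 2.65 in null pools. Kdm5d, also Y-linked, was likewise lowest in null pool 3, at 2.40. Xist was high in every null pool but, among wild-type pools, only in pool 2, so sex mix partly followed genotype. This touches the changes of all members, and sex and genotype cannot be fully separated in these pools.

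Efnb3 encodes ephrin-B3, known as a midline signal in the spinal cord. It read 8.56, 8.47 and 8.76 in wild-type and 8.69, 8.49 and 8.52 in null pools. The groups overlapped, with means of 8.59 ± 0.15 and 8.57 ± 0.11 (SD, n = 3) and a change of -0.03 (95% interval -0.25 to 0.19; limma adjusted p = 0.951).

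Turning to the receptors, Ephb4 encodes a receptor for ephrin-B2 and marks venous endothelium. It read 8.30, 8.32 and 8.41 in wild-type and 8.37, 8.30 and 8.32 in null pools, with full overlap. The change was -0.014 (SE 0.07), and its 95% interval of -0.17 to 0.14 holds it to between 0.892 and 1.10 times wild type (limma adjusted p = 0.965). Ephb3, a receptor with roles in palate and gut as well as in axon guidance, read 8.76, 8.93 and 8.87 against 9.00, 8.84 and 8.87. These also overlapped, with a change of 0.05 (95% interval -0.12 to 0.23; adjusted p = 0.863).

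Ephb6 encodes a receptor whose kinase domain lacks catalytic activity. It read 6.37, 6.32 and 6.51 in wild-type and 6.48, 6.39 and 6.35 in null pools, a change of 0.006 (95% interval -0.17 to 0.18; limma adjusted p = 0.987). The null pools lay within the range of the wild-type pools. Ephb1, the receptor of motor neurons that project to the ventral limb, was dim here, near the median of all probe sets, at 5.02, 5.15 and 4.91 in wild-type and 5.02, 4.48 and 5.12 in null pools. Null pool 2 stood apart below the other 5, and the null SD of 0.34 was the largest among the 12 probe sets. The change was -0.15 (SE 0.16; adjusted p = 0.806) and 0.04 without null pool 2. The cell bodies of motor neurons lie in the spinal cord, outside the tissue taken, and whether this bears on the Ephb1 values was not tested.

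**Figure D2:**
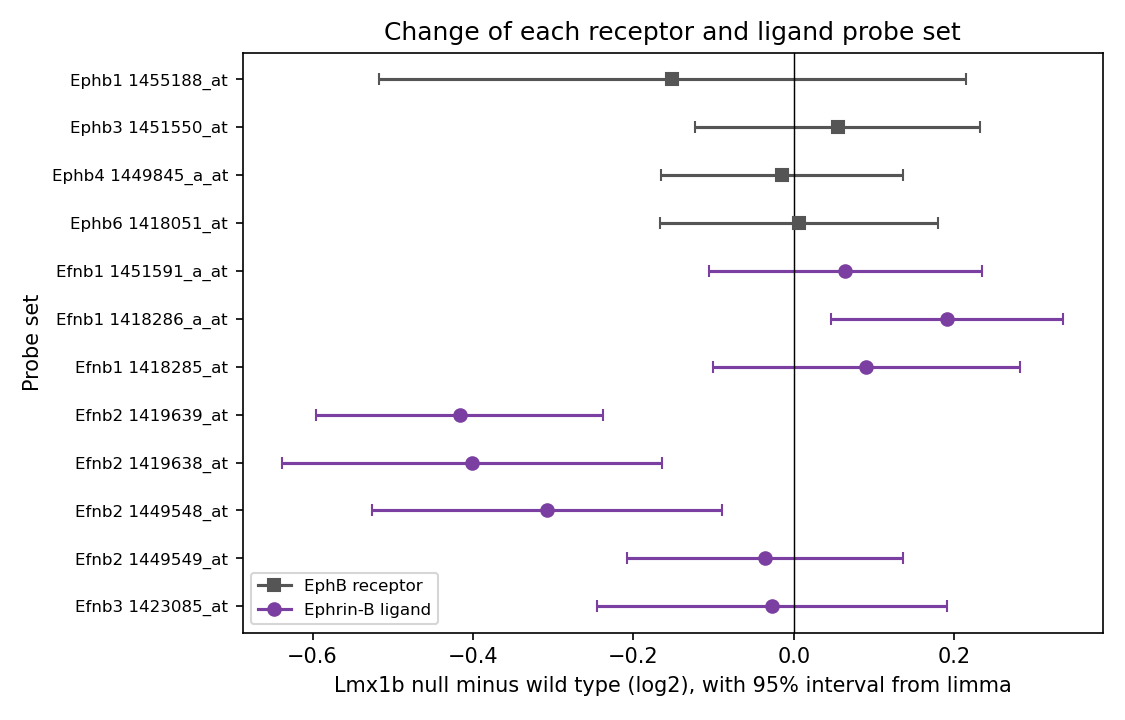
Change of each probe set, Lmx1b null minus wild type in log2 units (horizontal axis), with its 95% interval from limma; squares are receptors and circles ligands. The intervals of 3 Efnb2 probe sets lie below 0 and that of Efnb1 1418286_a_at above 0, before adjustment over 45037 probe sets; every receptor interval includes 0.

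Because all members were read on the same arrays, the ligand's change can be set beside that of its relatives within each pool. The log2 difference of Efnb2 1419639_at minus Ephb4 was 0.75, 0.94 and 0.83 in wild-type pools and 0.46, 0.45 and 0.41 in null pools, a shift of -0.40. For Efnb2 minus Ephb3 the shift was -0.47, and for Efnb2 minus Efnb1 1451591_a_at it was -0.48. In all 3 the groups did not overlap. These comparisons were chosen after the values were seen; each gave p = 0.1 in an exact two-sided permutation test of pools (adjusted p = 0.1 over the 3), the smallest that 3 against 3 allows. They restate the separation of Efnb2 that prompted them and add no support to it.

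Efnb2 and Ephb4 are both expressed in vessels, and general endothelial markers were lower together with Efnb2. All 10 pan-endothelial markers were lower in null pools (median change -0.18, beside 0.02 over all genes), with none past the threshold. Their mean level was 6.80 to 7.03 in wild-type and 6.68 to 6.73 in null pools, without overlap. Tek, an angiopoietin receptor, had the largest change, -0.65 (gene-level limma adjusted p = 0.0849), followed by Flt1, a VEGF receptor, at -0.44, Kdr at -0.22 and Pecam1 at -0.19. The groups of these 4 did not overlap, 40% of the list beside 14.6% of all genes. The Flt1 change rested largely on wild-type pool 3, at 6.56 beside 5.62 and 5.69 in wild-type pools 1 and 2 and 5.43 to 5.59 in null pools. Of 8 arterial markers 5 were lower, with a mean level of 5.62 to 5.86 in wild-type and 5.62 to 5.80 in null pools. The arterial changes ran from -0.25 for Bmx, which was dim (2.82 in wild type) and the one arterial marker whose groups did not overlap, to 0.12 for Unc5b; Gja4 was at -0.16 and Dll4 at 0.02. Of 5 venous and lymphatic markers 2 were lower, and the venous factor Nr2f2 was at 0.12. Their mean level was 6.31 to 6.33 in wild-type and 6.34 to 6.40 in null pools, just without overlap and higher in null pools. The groups overlapped in each of these markers taken singly, and 2 of the 5 were below the median brightness of all probe sets. The part of endothelial content in the Efnb2 difference was not tested, and in whole tissue fewer cells of a type and less RNA per cell cannot be told apart. Among 9 limb mesenchyme markers, 5 were lower and 4 higher, with a median change of -0.11. Prrx1 at -0.13, Tbx4 at -0.29 and Twist1 at 0.14 were those whose groups did not overlap, 33.3% of the list beside 14.6% of all genes. Muscle precursor markers averaged 5.94 to 6.33 in wild-type and 6.40 to 6.55 in null pools, without overlap. Of these 6 markers 5 were higher, most of all Myod1 at 0.51, while Myf5 at 0.02 and Pax3 at -0.005 hardly changed. Of 7 neuron and axon markers, 6 were higher in null pools and 5 were below the median brightness of all probe sets. Their mean level was 4.26 to 4.57 in wild-type and 4.57 to 4.68 in null pools, just without overlap. Nefl, a neurofilament gene, was at 0.96 (gene-level limma adjusted p = 0.220). Of the list only Nefl had groups that did not overlap, 14.3% beside 14.6% of all genes. The other changes ran from -0.32 for Mnx1 to 0.14 for Nefm, so the separation of the mean rests largely on Nefl. Surface ectoderm markers averaged 6.51 to 6.74 and 6.70 to 6.82 and overlapped. Wild-type pool 1 was the lowest of the 6 pools in the muscle, neuron and ectoderm lists, at 5.94, 4.26 and 6.51. The part of these cell types in the member values was not tested either.

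**Figure D3:**
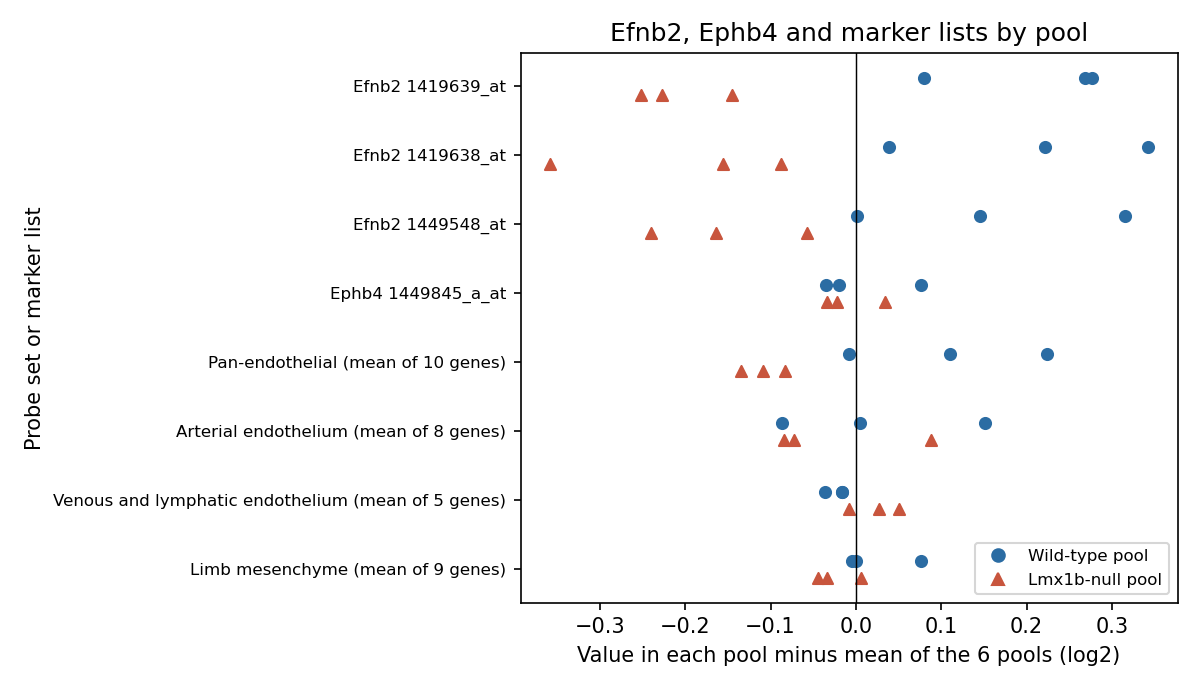
Value of each pool minus the mean of the 6 pools in log2 units (horizontal axis) for 3 Efnb2 probe sets, Ephb4 and the means of 4 marker lists; circles are wild-type and triangles Lmx1b-null pools. Efnb2 and the pan-endothelial mean separate the groups with null pools lower. The venous and lymphatic mean only just separates them, with null pools higher, while Ephb4, the arterial list and the limb mesenchyme list overlap.

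Partners that carry EphB and ephrin-B signals were read at 1 probe set per gene, 55 of 60 listed genes. None passed the threshold, against 0.104% of all genes. By an unadjusted p under 0.05, 3 were lower and 2 higher, so 5 of 55 met a rule that 9.8% of all genes met, and the list's median change was -0.0039 beside 0.02 over all genes. Of the 29 adaptors, exchange factors and targets of forward signalling, 15 were lower and 14 higher. Of 14 reverse signalling and PDZ partners, 6 were lower and 8 higher, and of 7 genes of shedding and turnover 5 were lower.

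Epha4, an EphA receptor that also binds ephrin-B2 and ephrin-B3 and guides dorsal motor axons, was the partner with the smallest p. It read 8.39, 8.55 and 8.43 in wild-type and 7.83, 8.15 and 7.81 in null pools, without overlap. The change was -0.53 (SE 0.10; gene-level limma adjusted p = 0.167). Sdc2, the proteoglycan syndecan-2, a target of EphB kinases in neurons, read 7.09, 7.82 and 7.39 against 6.74, 6.66 and 6.67, a change of -0.75 (SE 0.16; adjusted p = 0.218) on widely spread wild-type values. Yes1, a Src-family kinase, was at -0.15 (adjusted p = 0.503).

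On the higher side, Grip1, a PDZ scaffold that binds the ephrin-B tail, read 5.64, 5.58 and 5.46 in wild-type and 5.90, 5.84 and 5.91 in null pools. Its groups did not overlap, and its change was 0.32 (SE 0.07; gene-level limma adjusted p = 0.195). Pick1, another PDZ protein, was at 0.13. Ret, the GDNF receptor that acts with Eph receptors in limb motor axons, was at 0.33 but dim, at 3.82 and 4.15. The other motor axon receptors measured, Nrp1, Unc5c and Gfra1, had changes of -0.04, 0.07 and 0.10. The groups of 9 of the 55 partners did not overlap, 16.4%, beside 14.6% of all genes.

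**Figure D4:**
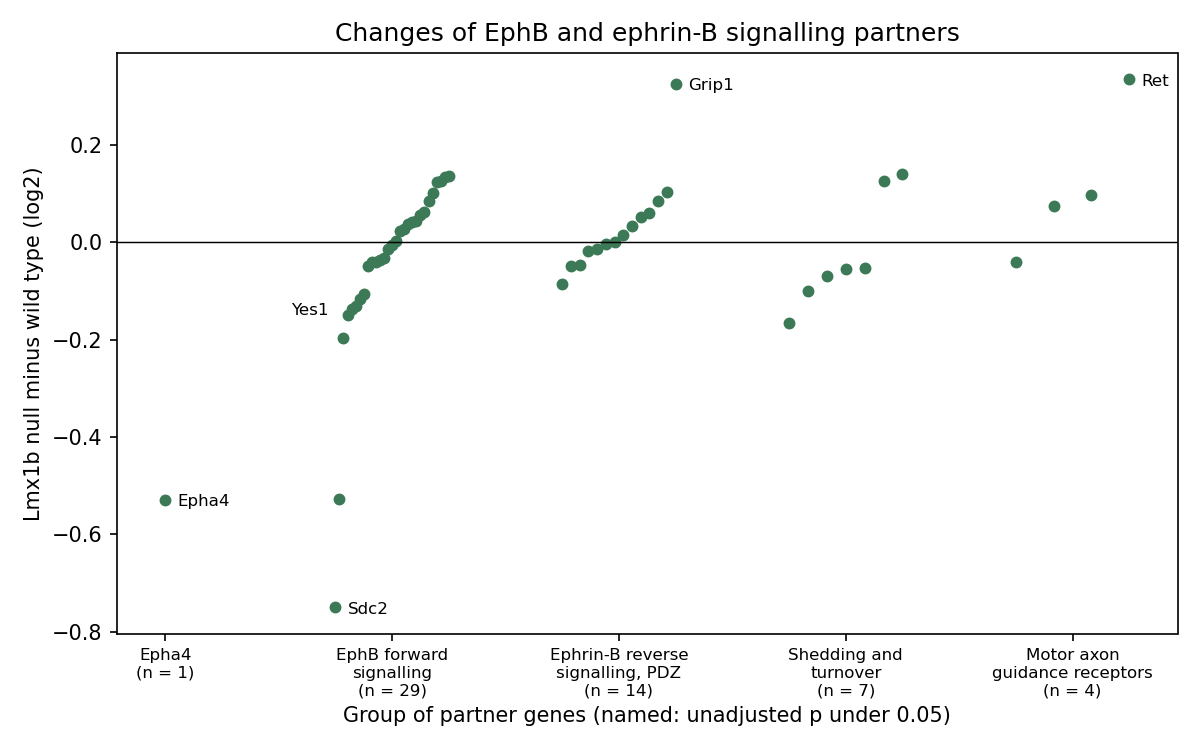
Change of 55 partner genes, Lmx1b null minus wild type in log2 units (vertical axis), by role; each point is 1 gene, ordered by change within its group, and genes with an unadjusted p under 0.05 are named. Most lie within 0.2 of no change; Epha4 at -0.53 and Sdc2 at -0.75 lie lowest among the named genes and Grip1 and Ret, at 0.32 and 0.33, highest.

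By profile over the 6 arrays, the probe sets of other genes most like Efnb2 1419639_at were those of L3mbtl3 (Pearson r = 0.988), Tmtc2 (0.988) and Npc1 (0.987), with changes of -0.24, -0.32 and -0.32. Of 19305 probe sets searched, 270 had r above 0.9, which 2 separated groups of 3 make easy to reach. For Ephb1, the receptor with the smallest p, the nearest were Cnpy2 (0.988), Mroh3 (0.978) and Bola2 (0.978), profiles that share the low value of null pool 2.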

How the data were processed

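RNA of 6 pools was labelled and hybridized to Affymetrix arrays, 1 array per pool, per the labels' protocols. The authors deposited 1 log2 value per probe set, made with RMA (background correction, normalization between arrays and probe summary), per the submitters' processing notes; no source used here gives the RMA version, and base 2 was taken from the range of the values. RMA makes the arrays' distributions nearly equal, which hides a shift common to most transcripts, and it compresses differences near the bottom of the range. The number of arrays limits the precision (median SE 0.0843).

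Of 45101 probe sets, 64 controls were left out. Symbols came from the platform annotation: 34945 probe sets had 1, 932 several and 9160 none here. The fit used limma 3.58.1 (R 4.3.3; lmFit, eBayes), two-sided, Benjamini-Hochberg adjusted, threshold 0.05; partners and markers used the brightest probe set per gene (18193 genes). The scripts were tested on simulated data. The labels name separate pools of embryos, which were taken as replicates. Named were all member probe sets, the 3 lower and 3 higher partners with the smallest p, the 3 most similar profiles per role, and Lmx1b; markers, the other motor axon receptors and within-array differences were chosen after their values were seen. The members and lists were chosen with earlier results of these data known. Alternatives covered scaling, variance model, weights, brightness, threshold, pool block, Xist level, each pool left out and 1 probe set per gene.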

Additional observations from a re-analysis of the deposited data

How the results depend on the processing

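No member probe set and no partner gene passed the threshold under any alternative; for Efnb2 1419639_at the adjusted p ran from 0.056 (intensity trend) to 0.589 (Xist level in the fit), and its change from -0.48 to -0.38. The 3 brighter Efnb2 probe sets and all 3 of Efnb1 kept their direction in every alternative run. With Xist in the fit Efnb2 1449548_at was -0.19 and Ephb1 was -0.35. Where changes were near 0 the sign turned: with Xist in the fit Ephb3 was -0.015, Ephb4 0.010, Efnb2 1449549_at 0.047 and Efnb3 0.092; Ephb4 was 0.0089 after repeated quantile normalization, Ephb6 -0.011 with median centring and Efnb3 0.016 with array weights. With 1 pool left out, Efnb1 1451591_a_at ranged from 0.017 (without wild-type pool 1) to 0.099, Efnb1 1418285_at from 0.035 (without null pool 2) to 0.16 and Ephb3 from 0.0065 (without null pool 1; 0.0068 without wild-type pool 1) to 0.093. Ephb1 ranged from -0.28 to 0.044, Ephb4 from -0.036 to 0.020, Ephb6 from -0.033 to 0.059 and Efnb3 from -0.091 to 0.054; signs turned without null pool 2 (Ephb1, Efnb3), wild-type pool 3 (Ephb4, Efnb3) and each of wild-type pools 1 and 2 and null pool 1 (Ephb6). The cause was not tested. Of all probe sets, 38 passed as reported, 94 with an intensity trend, 69 with array weights, 99 at an adjusted p under 0.1, 20 among bright probe sets, 19 at 1 per gene, 9 with Xist in the fit and 13 to 38 with 1 pool left out (15 and 21 without wild-type pools 2 and 3; 13, 20 and 18 without null pools 1, 2 and 3). With the pool number as a replicate block 14 passed (Efnb2 1419639_at limma adjusted p = 0.406). The deviations of pools that carry the same number correlated at -0.239, -0.0878 and -0.168. With 3 pools a group these values cannot show whether pools of the same number belong together, and the labels do not say whether the groups were littermates. The bright filter left 10 member probe sets, without Ephb1 and Efnb2 1449549_at, and the partner list was already at 1 probe set per gene.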
